A study of Homo sapiens with 18 samples.

Results

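The transcripts described here are 10 genes of the insulin-like growth factor (IGF) system, taken from a table of 60623 genes by their gene names: the ligands IGF1 and IGF2, the receptor IGF1R, the protease PAPPA, and the binding proteins IGFBP2, IGFBP3, IGFBP4, IGFBP5, IGFBP6 and IGFBP7. They were measured by RNA sequencing of polyadenylated RNA in IMR90 cells, a line of normal human lung fibroblasts, labelled wild type. The cells were either proliferating (Prolif) or made senescent by ionizing radiation (IR). Each state was treated with DMSO alone (the solvent) or with RG7388, also called idasanutlin, or HDM201, also called siremadlin. Both compounds inhibit MDM2, the ubiquitin ligase that keeps p53 protein low. The 6 groups, Prolif_DMSO, Prolif_RG7388, Prolif_HDM201, IR_DMSO, IR_RG7388 and IR_HDM201, held 3 libraries each. In the irradiated groups treatment began on day 4 and lasted 7 days, to collection on day 11, and the labels give no length of treatment for proliferating cells. Since the doses of RG7388 and HDM201 were not the same, their values stand side by side and were not tested against each other. All groups come from a single fibroblast line, and the labels do not say whether replicates were irradiated separately, so p-values measure the spread between these libraries only.

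IGF1 and IGF2 are small secreted hormones that act mainly through the receptor tyrosine kinase IGF1R. In tissue fluid most IGF is held by binding proteins, which keep it from the receptor, carry it, or store it in the matrix. The metalloprotease PAPPA (pappalysin) frees IGF by cutting IGFBP4, and also IGFBP5, and is itself inhibited by the stanniocalcins STC1 and STC2. Several binding proteins are part of the secretory phenotype of senescent cells, and IGFBP3 and IGFBP7 have been described as secreted products linked to p53 or to senescence.

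In hg38 with the GENCODE release 44 annotation, IGFBP2 (ENSG00000115457.10, chr2:216632828-216664436, plus strand) and IGFBP5 (ENSG00000115461.5, chr2:216672105-216695549, minus strand) lie tail to tail, 7668 bases apart. IGFBP3 (ENSG00000146674.15) is at chr7:45912245-45921874 on the minus strand. IGFBP4 (ENSG00000141753.7) is at chr17:40443450-40457725 on the plus strand, and IGFBP6 (ENSG00000167779.9) is at chr12:53097436-53102345 on the plus strand. IGFBP7 (ENSG00000163453.11) is at chr4:57030773-57110385 on the minus strand. The ligand genes IGF1 (ENSG00000017427.16, chr12:102395874-102481744) and IGF2 (ENSG00000167244.21, chr11:2129112-2158391) are on the minus strand. IGF1R (ENSG00000140443.15, chr15:98648539-98964530) and PAPPA (ENSG00000182752.10, chr9:116153791-116402321) are on the plus strand. Reads were counted over the exons of each gene, so a value does not tell isoforms apart.

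Sequences just upstream of the transcription start were available from RefSeq (GRCh38.p14) for 8 of the 10 genes, in 11 windows of 250 bases because some genes have several starts. IGFBP3, IGFBP4 and PAPPA are shown because each was called with both MDM2 inhibitors in irradiated cells and because their windows are those with a TATA motif, a choice made after their values were seen. The motif, TATANA read on the strand of the gene with its first base 40 to 20 bases before the start, was found in 3 of the 11 windows, against 3.46% of the 35116 windows of all genes. It begins at -30 in IGFBP3, at -29 in IGFBP4 and at -28 in PAPPA. Only this exact pattern was searched for, so a variant such as tatttaaa, present in the IGFBP5 window, was not counted. Each sequence is written 5′ to 3′ on the strand of the gene, with the motif in capitals. The windows are chr7:45921273-45921522 on the minus strand for IGFBP3, chr17:40443200-40443449 on the plus strand for IGFBP4 and chr9:116153541-116153790 on the plus strand for PAPPA. The RefSeq start used for IGFBP3 is 602 bases from the start of the gene in GENCODE, so its window lies inside the gene as placed above.
IGFBP3: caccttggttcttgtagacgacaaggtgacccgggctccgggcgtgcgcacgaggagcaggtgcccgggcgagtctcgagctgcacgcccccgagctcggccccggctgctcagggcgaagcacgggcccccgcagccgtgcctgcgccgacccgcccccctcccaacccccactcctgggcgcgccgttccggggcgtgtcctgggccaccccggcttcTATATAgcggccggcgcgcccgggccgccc
IGFBP4: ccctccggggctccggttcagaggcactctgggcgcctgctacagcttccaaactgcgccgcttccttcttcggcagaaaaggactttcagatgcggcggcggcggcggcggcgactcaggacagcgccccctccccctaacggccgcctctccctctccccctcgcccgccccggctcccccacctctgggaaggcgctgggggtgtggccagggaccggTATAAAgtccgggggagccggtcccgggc
PAPPA: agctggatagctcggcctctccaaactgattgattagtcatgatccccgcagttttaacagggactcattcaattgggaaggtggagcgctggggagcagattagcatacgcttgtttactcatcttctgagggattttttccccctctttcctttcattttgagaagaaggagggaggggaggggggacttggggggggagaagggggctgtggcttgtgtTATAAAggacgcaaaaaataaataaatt
The windows of IGFBP3 and IGFBP4 hold 76% and 71.6% G and C, and that of PAPPA holds 48%, against a median of 58% over all windows. A 10-base p53 half-site motif, which is only a part of a p53 response element, was found in none of the 3 windows shown. The half-site was present in 1 of the 11 windows, that of an internal start of IGFBP2, against 5.57% of all windows. Full response elements were not searched for.

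Libraries held 21609198 to 66647700 counted reads. Levels are given as CPM, the counts of each library put on a shared depth by TMM factors, and differences as log2 fold changes with their standard error (SE) from a quasi-likelihood model in edgeR fitted to all 18 libraries. Called means an edgeR p under 0.05 after Benjamini-Hochberg adjustment over the 18151 genes tested. The labels were checked on genes outside the IGF system. CDKN1A, a p53 target, had 231 ± 13.2 CPM (SD, n = 3) in Prolif_DMSO, 748 ± 43.0 and 627 ± 104 in proliferating cells with RG7388 and HDM201, and 1818 ± 95.1 in IR_DMSO. In irradiated cells CDKN1A was 2110.3 ± 47.3 CPM with RG7388 and 1763 ± 96.0 with HDM201, and neither difference from IR_DMSO was called (edgeR adjusted p = 0.158 and 0.82). MDM2, also a p53 target, was 170.2 ± 1.63 CPM in IR_DMSO, 163 ± 8.94 in IR_RG7388 and 162 ± 23.7 in IR_HDM201, again not called (edgeR adjusted p = 0.854 and 0.835). MKI67, a proliferation marker, had 506 ± 51.9 CPM in Prolif_DMSO and 28.9 ± 9.57 in IR_DMSO. It was called lower in IR_RG7388, at 9.52 ± 1.38 CPM, and in IR_HDM201, at 12.99 ± 4.78 (edgeR adjusted p = 0.0062 and 0.0419). LMNB1, the remaining check gene, had 144.8 ± 4.08 CPM in Prolif_DMSO and 6.83 ± 1.54 in IR_DMSO. It was also called lower in IR_RG7388, at 2.40 ± 0.55 CPM, and in IR_HDM201, at 4.59 ± 0.61 (edgeR adjusted p = 1.28e-07 and 0.0109). All 8 fibroblast markers were above 1 CPM in every library, with a summed level of 36685 to 54206 CPM in proliferating and 16140 to 25303 CPM in irradiated libraries, and the part of that difference in the results was not tested. The summed level of 3 epithelial, 3 endothelial and 4 leukocyte markers stayed at or below 1.44, 1.98 and 0.669 CPM. Replicate 1 of IR_DMSO and replicate 3 of Prolif_HDM201 stood apart from their groups, with mean rank correlations with their mates of 0.9828 and 0.9785, the lowest in their groups. Results that rest on them are also given without them. In bulk RNA, a change in the number of cells that express a gene and a change in RNA per cell cannot be told apart.

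**Figure D1:**
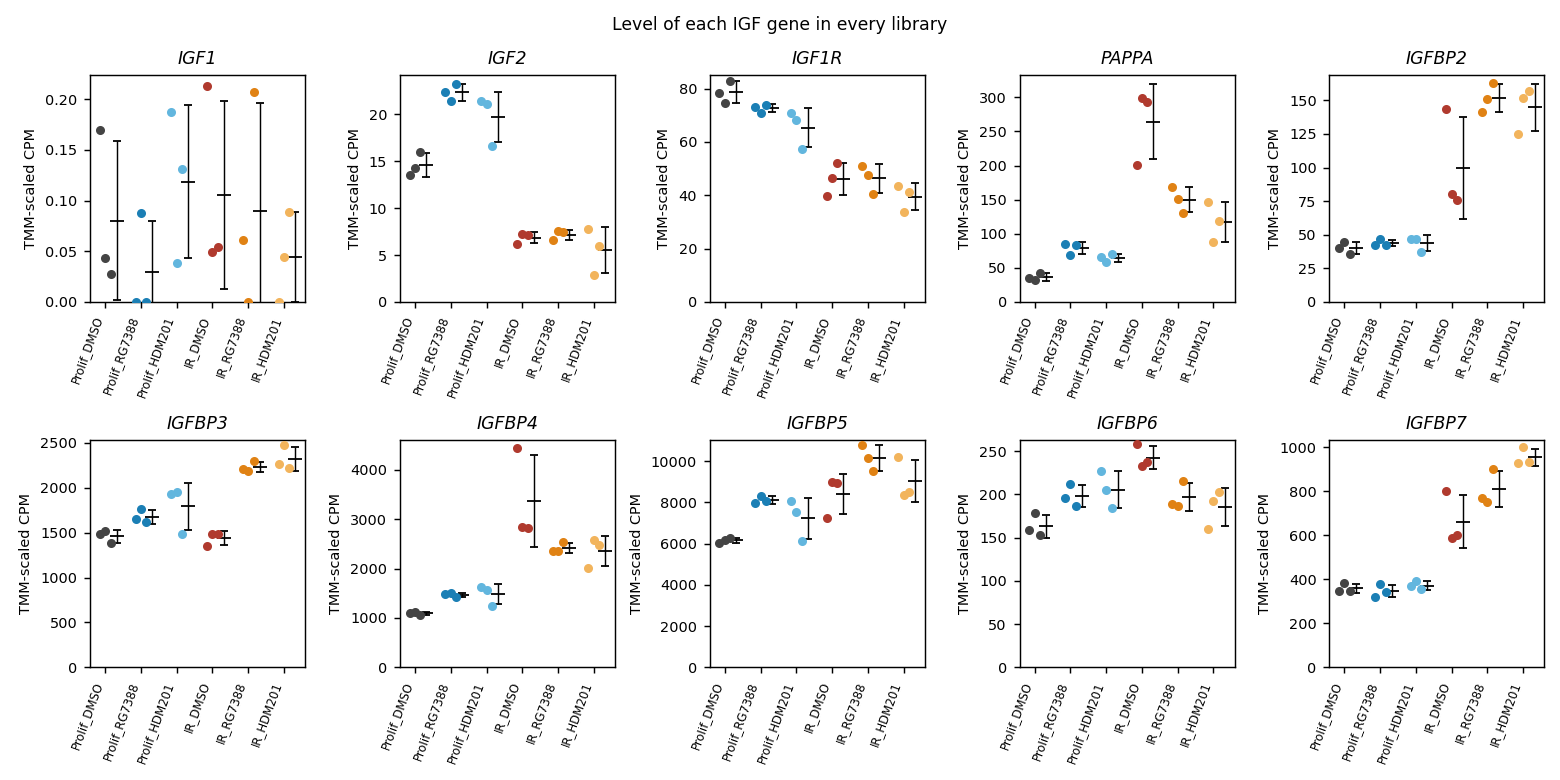
Level of each of the 10 IGF genes (TMM-scaled CPM, linear axes from 0, a scale per gene) in the 18 libraries, as points by group, with the group mean ± SD in black. The PAPPA points of IR_DMSO, 201 to 298 CPM, lie above those of every other group, while those of IGFBP3 in irradiated cells with either inhibitor, 2193 to 2479 CPM, lie above all others.

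The 10 genes took 0.881% to 1.11% of counted reads in proliferating and 1.53% to 1.72% in irradiated libraries, and IGFBP5 took most of this share in each. Per kilobase of exon, the order of levels in Prolif_DMSO was IGFBP5 (952 ± 19.5 CPM per kilobase, SD, n = 3), IGFBP4 (497 ± 15.3), IGFBP3 (319 ± 15.3), IGFBP7 (186 ± 10.9) and IGFBP6 (121 ± 9.92). Far below these came IGFBP2 (8.43 ± 0.922), IGF1R (5.64 ± 0.293), PAPPA (3.19 ± 0.483) and IGF2 (2.04 ± 0.177), and IGF1 was last. In Prolif_DMSO no neighbours in this order overlapped within 1 SD. On this scale every binding protein gene stood above the ligands and the receptor in all 6 groups. On the deposited FPKM values, IGF2 stood above IGFBP2 in the proliferating groups, at 49.2 ± 0.918 against 35.5 ± 2.80 FPKM in Prolif_DMSO, 77.3 ± 3.25 against 38.7 ± 2.37 in Prolif_RG7388 and 66.3 ± 1.78 against 37.3 ± 2.37 in Prolif_HDM201. In IR_DMSO IGFBP4 was first, at 1526 ± 422 CPM per kilobase, but overlapped IGFBP5 at 1300 ± 153. There, IGFBP7 (343 ± 62.3) and IGFBP3 (315 ± 17.7) also overlapped, as did PAPPA (22.8 ± 4.74) and IGFBP2 (21.0 ± 7.998). With either inhibitor in irradiated cells IGFBP5 was first again, at 1572 ± 97.3 CPM per kilobase in IR_RG7388 and 1395 ± 157 in IR_HDM201. In IR_HDM201, IGFBP3 (508 ± 29.9) and IGFBP7 (494 ± 20.5) overlapped. PAPPA and IGF1R overlapped in Prolif_HDM201, at 5.58 ± 0.512 and 4.69 ± 0.516. Ranks by the FPKM values that the authors deposited differed for 28 of 60 gene and group pairs. Among them, IGFBP3 stood above IGFBP4 in the proliferating groups, at 552 ± 26.8 against 441 ± 10.2 FPKM in Prolif_DMSO. In Prolif_RG7388 they were at 624 ± 18.5 and 586 ± 8.37 FPKM. In Prolif_HDM201 they overlapped, at 681 ± 79.8 and 599 ± 58.1 FPKM. The rank of IGF2 by CPM per kilobase is uncertain, because many of its exon bases are shared with other genes on its strand.

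Irradiation with DMSO raised PAPPA and 5 binding protein genes and lowered IGF2 and IGF1R. IGFBP3 was not called. Of the 9 genes that passed the filter on low counts, 6 were called higher and 2 lower, against 51.6% of all genes tested (26.3% higher and 25.3% lower). Their median log2 fold change was 0.57, against 0.05 over all genes. The libraries of the 2 groups did not overlap for 8 of the 9, against 61.2% of all genes.

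PAPPA, the protease, had the largest fold change of the 9 genes. It was 35.2, 32.4 and 43.2 CPM in replicates 1 to 3 of Prolif_DMSO and 201, 298 and 293 CPM in those of IR_DMSO. Every irradiated library was above every proliferating one, and replicate 1 was the lowest of the irradiated. The difference was 7.15-fold, a log2 fold change of 2.84 ± 0.19 (SE, edgeR adjusted p = 1.53e-10). PAPPA shares 2450 exon bases (21.1%) with PAPPA-AS1 on the opposite strand, which was at 0 counts in every library.

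IGFBP4, the main substrate of PAPPA, was 1100.3, 1127 and 1060.3 CPM in Prolif_DMSO and 4439, 2843 and 2813 CPM in IR_DMSO. The groups did not overlap, and replicate 1 stood far above its mates. The log2 fold change was 1.62 ± 0.15 (edgeR adjusted p = 2.95e-09). IGFBP2, a binding protein of both ligands, was 40.0, 44.4 and 35.6 CPM in Prolif_DMSO and 143, 80.2 and 75.6 CPM in IR_DMSO, again with replicate 1 the highest. Its log2 fold change was 1.32 ± 0.18 (edgeR adjusted p = 6.4e-06). IGFBP7, a matrix-associated relative with low affinity for IGF, was 345, 383 and 348 CPM in Prolif_DMSO and 800.4, 586 and 599 CPM in IR_DMSO. The groups did not overlap, and the log2 fold change was 0.88 ± 0.11 (edgeR adjusted p = 7.77e-07). IGFBP7 shares 260 exon bases (13.5%) with POLR2B on the opposite strand, which had 2879 to 10419 counts, and reads from the shared bases cannot be told apart without the strand setting.

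IGFBP6, which prefers IGF2 over IGF1, rose from 163 ± 13.4 CPM (SD, n = 3) to 243 ± 13.3, a log2 fold change of 0.57 ± 0.11 (edgeR adjusted p = 0.000108). IGFBP5, the most abundant member and a second substrate of PAPPA, rose from 6157 ± 126 to 8407 ± 989 CPM, a log2 fold change of 0.45 ± 0.11 (edgeR adjusted p = 0.00212). IGFBP3, the main carrier of IGF in blood, was 1459 ± 69.9 and 1440.4 ± 81.0 CPM. Its log2 fold change was -0.02 ± 0.10, with a 95% interval of -0.24 to 0.20 (edgeR adjusted p = 0.892). Scaled to library totals instead, which moves the median of all genes by 0.288 on the log2 scale in this comparison, IGFBP3 was called higher, at 0.27.

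Among the ligands and the receptor, IGF2 was 13.5, 14.3 and 15.96 CPM in Prolif_DMSO and 6.16, 7.28 and 7.11 CPM in IR_DMSO, with no overlap. Its log2 fold change was -1.09 ± 0.20 (edgeR adjusted p = 0.000124). IGF2 shares 2711 exon bases (37.9%) with ENSG00000284779 on the same strand, which had 0 to 2 counts per library. It shares 1460 (20.4%) with INS-IGF2, also on the same strand, which was at 0 counts in every library. How reads from bases shared by 2 genes were counted is not given in the sources used here. The level of IGF2 in CPM may therefore be too low. IGF1R was 78.3, 74.7 and 82.8 CPM in Prolif_DMSO and 39.8, 46.4 and 52.1 CPM in IR_DMSO. The receptor thus fell in every irradiated library below every proliferating one, with a log2 fold change of -0.77 ± 0.12 (edgeR adjusted p = 1.09e-05). The fall of IGF1R was not called on the deposited FPKM values, where the log2 change was -0.24 with a pseudocount of 1 (limma adjusted p = 0.479).

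IGF1 did not pass the filter and was not tested. It had 0 to 11 counts per library and 56 in all, and 4 libraries had 0. Its highest level was 0.213 CPM, and a count of 0 allows up to 0.0456 to 0.135 CPM (3 counts, counting error only), depending on the library. 82.5% of its exon bases lie under HELLPAR on the opposite strand, and the strand setting of the counting is not given in the sources used here, so reads of IGF1 and HELLPAR cannot be told apart. No difference in IGF1 was detectable at this depth.

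The comparison of irradiated with proliferating cells was repeated on separate libraries in cells kept with RG7388 and in cells kept with HDM201. With each inhibitor 6 members were called higher and 2 lower, against 44% and 46.5% of all genes (21.3% and 22.7% higher, 22.8% and 23.8% lower). Libraries of the 2 states did not overlap for 8 of the 9 in each, against 61.1% and 48% of all genes. IGFBP2, IGFBP4, IGFBP5, IGFBP7 and PAPPA were higher and IGF2 and IGF1R lower in irradiated cells under DMSO, RG7388 and HDM201 alike. IGFBP3 was called higher with the inhibitors, with log2 fold changes of 0.41 ± 0.10 for RG7388 (edgeR adjusted p = 0.00218) and 0.37 ± 0.10 for HDM201 (edgeR adjusted p = 0.00454). The HDM201 call of IGFBP3 ended when only its own 2 groups were fitted (0.36, edgeR adjusted p = 0.0733). IGFBP6 was not called in either, at -0.01 ± 0.11 (edgeR adjusted p = 0.966) and -0.15 ± 0.11 (edgeR adjusted p = 0.273). Without both libraries that stood apart, IGFBP6 was called lower in the HDM201 comparison, at -0.25 (edgeR adjusted p = 0.0374). IGFBP5 was then no longer called there, at 0.18 (edgeR adjusted p = 0.0583), so 5 members were higher and 3 lower, against 53.3% of all genes. PAPPA was 0.92 ± 0.17 higher with RG7388 (edgeR adjusted p = 0.000243) and 0.86 ± 0.17 with HDM201 (edgeR adjusted p = 0.000445), on the log2 scale. IGFBP4 was 0.72 ± 0.14 (edgeR adjusted p = 0.000257) and 0.67 ± 0.14 (edgeR adjusted p = 0.000476) higher. The falls of IGF2 were -1.64 ± 0.20 and -1.79 ± 0.21, and those of IGF1R -0.65 ± 0.12 and -0.73 ± 0.12. IGFBP2 rose by 1.79 ± 0.19 and 1.73 ± 0.19, and IGFBP7 by 1.22 ± 0.11 and 1.36 ± 0.12. IGFBP5, at 0.32 ± 0.11 with each inhibitor, was close to the threshold (edgeR adjusted p = 0.024 and 0.025). The call of IGFBP5 ended without any of the Prolif_RG7388 libraries, replicate 1 or 2 of IR_RG7388, replicate 3 of Prolif_HDM201, or replicate 1 or 3 of IR_HDM201 (edgeR adjusted p from 0.051 to 0.204).

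**Figure D2:**
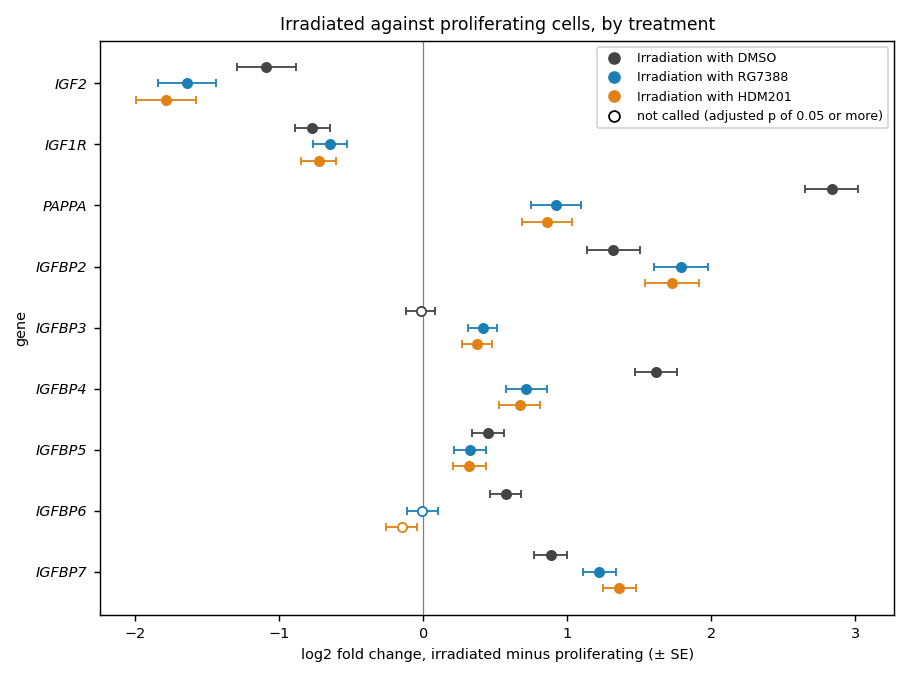
Log2 fold change (± SE) of irradiated over proliferating cells for the 9 tested genes with DMSO, RG7388 or HDM201. Filled points are called at an adjusted p under 0.05 and open points are not. The PAPPA point with DMSO (2.84) lies far to the right of those with RG7388 (0.92) and HDM201 (0.86).

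In irradiated cells the MDM2 inhibitors raised IGFBP2 and IGFBP3 and lowered PAPPA, IGFBP4 and IGFBP6, and HDM201 also raised IGFBP7. With RG7388, 2 members were called higher and 3 lower, against 22.8% of all genes (10.9% higher and 11.9% lower). With HDM201, 3 were higher and 3 lower, against 21.3% (9.96% higher and 11.3% lower). Both comparisons use the same IR_DMSO libraries, including the replicate that stood apart. Libraries of inhibitor and DMSO did not overlap for 5 of the 9 genes in each comparison, against 44.3% of all genes for RG7388 and 36.2% for HDM201.

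PAPPA was 168, 151 and 131 CPM in IR_RG7388 and 146, 87.5 and 118 CPM in IR_HDM201. All 6 values lay below the lowest IR_DMSO library, at 201 CPM, and above the highest proliferating library, at 84.97 CPM. PAPPA fell with RG7388, with a log2 fold change of -0.82 ± 0.17 (edgeR adjusted p = 0.00178), and with HDM201, at -1.17 ± 0.17 (edgeR adjusted p = 6.56e-05). Without replicate 1 of IR_DMSO the values were -0.97 and -1.33.

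IGFBP3 was 2210, 2193 and 2301 CPM in IR_RG7388 and 2267, 2479 and 2223 CPM in IR_HDM201, against 1347, 1491 and 1483 CPM in IR_DMSO. No inhibitor library overlapped the DMSO libraries. IGFBP3 rose by 0.63 ± 0.10 on the log2 scale with RG7388 (edgeR adjusted p = 7.48e-05) and by 0.69 ± 0.10 with HDM201 (edgeR adjusted p = 3.01e-05). The calls of IGFBP3 and PAPPA with either inhibitor in irradiated cells held in every alternative, including without any single library.

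IGFBP4 was 2361, 2354 and 2534 CPM in IR_RG7388 and 2005, 2587 and 2471 CPM in IR_HDM201. These values lay below the 2813 CPM of the lowest IR_DMSO library. The log2 fold changes were -0.48 ± 0.14 with RG7388 (edgeR adjusted p = 0.0171) and -0.52 ± 0.14 with HDM201 (edgeR adjusted p = 0.0115). Without replicate 1 of IR_DMSO, at 4439 CPM, both calls ended and IGFBP4 was at -0.22 (edgeR adjusted p = 0.234) and -0.26 (edgeR adjusted p = 0.149). The calls of IGFBP4 also ended without replicate 1 or 2 of IR_RG7388 (edgeR adjusted p = 0.0702 and 0.0737) and without replicate 1 of IR_HDM201 (edgeR adjusted p = 0.0789). With both libraries that stood apart left out, IGFBP4 was called with HDM201 at -0.26 (edgeR adjusted p = 0.0256) and not with RG7388 at -0.22 (edgeR adjusted p = 0.0564). IGFBP6 was 189, 186 and 216 CPM in IR_RG7388 and 160.2, 193 and 203 CPM in IR_HDM201, against 258, 233 and 237 CPM in IR_DMSO. Its log2 fold changes were -0.30 ± 0.11 (edgeR adjusted p = 0.0465) and -0.39 ± 0.11 (edgeR adjusted p = 0.0115), and without the same library -0.25 and -0.34 (edgeR adjusted p = 0.167 and 0.0519). The RG7388 call of IGFBP6 ended without any single library except replicate 3 of IR_RG7388, and the HDM201 call also without replicate 1 of IR_HDM201 (edgeR adjusted p = 0.0972).

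IGFBP2 was 142, 151 and 163 CPM in IR_RG7388 and 125, 152 and 157 CPM in IR_HDM201. The range overlapped replicate 1 of IR_DMSO at 143 CPM and lay above its mates. IGFBP2 rose by 0.60 ± 0.18 with RG7388 (edgeR adjusted p = 0.0203) and by 0.54 ± 0.18 with HDM201 (edgeR adjusted p = 0.0406). Without replicate 1 of IR_DMSO the values were 0.97 and 0.90 (edgeR adjusted p = 7.15e-06 and 2.26e-05). The calls of IGFBP2 ended without replicate 2 or 3 of IR_DMSO (0.47 and 0.44 for RG7388, 0.40 and 0.37 for HDM201), and without replicate 2 or 3 of either inhibitor group (edgeR adjusted p from 0.0537 to 0.134). IGFBP7 was 771, 752 and 902 CPM in IR_RG7388 and 929, 999 and 933 CPM in IR_HDM201. The RG7388 libraries overlapped those of IR_DMSO and the HDM201 libraries did not. The log2 fold change of IGFBP7 was 0.29 ± 0.11 with RG7388 (edgeR adjusted p = 0.0698) and 0.53 ± 0.11 with HDM201 (edgeR adjusted p = 0.00165). Without replicate 1 of IR_DMSO both were called, at 0.45 and 0.69 (edgeR adjusted p = 0.00447 and 7.27e-05).

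With all libraries, IGFBP5, IGF2 and IGF1R were not called with either inhibitor in irradiated cells. IGFBP5 had 7266 to 9015 CPM in IR_DMSO, 9541 to 10799 in IR_RG7388 and 8343 to 10188 in IR_HDM201. With RG7388 its libraries did not overlap those of IR_DMSO. The log2 fold change was 0.27 ± 0.11 there, with a 95% interval of 0.03 to 0.52 (edgeR adjusted p = 0.088). With HDM201 it was 0.10 ± 0.11, with an interval of -0.15 to 0.35 (edgeR adjusted p = 0.58). For IGF2, at 6.16 to 7.28, 6.56 to 7.52 and 2.90 to 7.77 CPM in the same groups, the 95% intervals of the log2 fold change were -0.38 to 0.51 with RG7388 and -0.72 to 0.19 with HDM201. For IGF1R they were -0.25 to 0.27 and -0.48 to 0.04, which leaves room for changes of moderate size. Without replicate 1 of IR_HDM201, IGF2 was called lower with HDM201, at -0.63 (edgeR adjusted p = 0.0363). IGF1R was called lower with HDM201 without both libraries that stood apart, at -0.31 (edgeR adjusted p = 0.0262), and with library totals, at -0.37 (edgeR adjusted p = 0.0228).

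In proliferating cells PAPPA was the single member called with either inhibitor. PAPPA was 84.97, 69.2 and 83.1 CPM in Prolif_RG7388 and 65.8, 58.2 and 69.8 CPM in Prolif_HDM201, against at most 43.2 CPM in Prolif_DMSO. It rose by 1.10 ± 0.18 on the log2 scale with RG7388 (edgeR adjusted p = 0.00207) and by 0.81 ± 0.18 with HDM201 (edgeR adjusted p = 0.0368). The HDM201 call of PAPPA ended without replicate 1 or 2 of either group (log2 fold changes of 0.72 to 0.87, edgeR adjusted p from 0.0687 to 0.184). Few genes were called in these comparisons, 1.54% with RG7388 (1.2% higher and 0.342% lower) and 0.7% with HDM201 (0.545% higher and 0.154% lower). With RG7388 the libraries did not overlap for 7 of the 9 members (6 higher and 1 lower), against 25.8% of all genes. With HDM201 this held for 5 of the 9 (4 higher and 1 lower), against 13%.

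The other members with separate libraries in Prolif_RG7388 were not called in the edgeR fit to all 18 libraries with the filter on low counts. IGFBP5 was 7949, 8327 and 8066 CPM, against 6027, 6166 and 6279 CPM in Prolif_DMSO, a log2 fold change of 0.40 ± 0.11 (edgeR adjusted p = 0.0834). IGF2 was 22.3, 21.4 and 23.2 CPM, a log2 fold change of 0.61 ± 0.20 (edgeR adjusted p = 0.145). IGFBP4, at 0.42 ± 0.14 (edgeR adjusted p = 0.164), IGFBP6, at 0.28 ± 0.11 (edgeR adjusted p = 0.247), and IGFBP3, at 0.20 ± 0.10 (edgeR adjusted p = 0.413), were likewise not called. IGF1R was the member with separate libraries that was lower, at 70.9 to 73.9 CPM against 74.7 to 82.8, a log2 fold change of -0.11 ± 0.12 (edgeR adjusted p = 0.758). Some other fits called more members higher with RG7388, PAPPA included. There were 4 with no filter on low counts (362 genes called in all) and 4 with the groups of the comparison only (1081 genes). DESeq2 called 2 members higher (532 genes). In Prolif_HDM201, replicate 3 was the lowest of its group for IGFBP2 to IGFBP7, IGF2 and IGF1R. Without it, the HDM201 comparison called 5 members, with IGFBP3 at 0.42 (edgeR adjusted p = 0.00455), IGFBP4 at 0.55 (edgeR adjusted p = 0.0261), IGFBP5 at 0.35 (edgeR adjusted p = 0.0348), IGFBP6 at 0.41 (edgeR adjusted p = 0.0228) and PAPPA at 0.75 (edgeR adjusted p = 0.024). The number of genes called then rose from 127 to 1672. Without both libraries that stood apart, 4 members were called for RG7388 and 5 for HDM201, against 7.83% and 15.4% of all genes. Neither of these libraries is in a group of the RG7388 comparison.

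**Figure D3:**
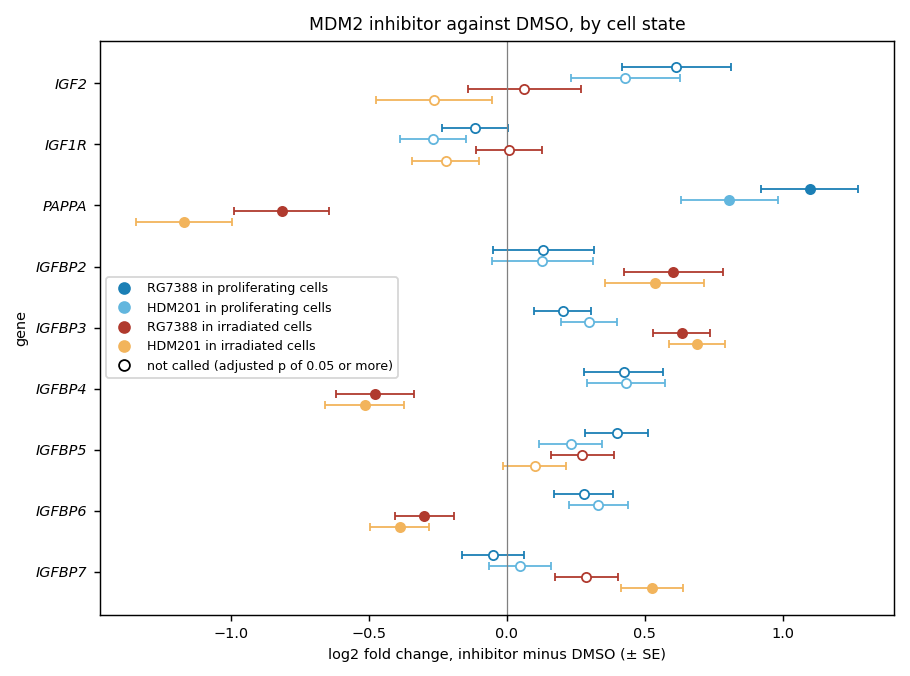
Log2 fold change (± SE) of inhibitor over DMSO for the 9 tested genes in proliferating and in irradiated cells. Filled points are called at an adjusted p under 0.05 and open points are not. For PAPPA the proliferating points lie right of 0 (1.10 and 0.81) and the irradiated points left of it (-0.82 and -1.17).

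Whether an inhibitor acted differently in the 2 states was tested as an interaction, the log2 change in irradiated cells minus that in proliferating cells. The labels give no length of treatment for proliferating cells. A difference between states therefore cannot be told apart from a difference in length of treatment. For PAPPA the interaction was -1.91 ± 0.25 with RG7388 (edgeR adjusted p = 2.84e-05) and -1.98 ± 0.25 with HDM201 (edgeR adjusted p = 2.04e-05), since its level rose in proliferating and fell in irradiated cells. For IGFBP4 it was -0.90 ± 0.20 (edgeR adjusted p = 0.00504) and -0.95 ± 0.20 (edgeR adjusted p = 0.00322), and for IGFBP6 -0.58 ± 0.15 (edgeR adjusted p = 0.018) and -0.72 ± 0.15 (edgeR adjusted p = 0.00303). These 3 members were called in each interaction, all in the lower direction, against 7.47% of all genes with RG7388 (2.2% higher and 5.27% lower) and 8.64% with HDM201 (2.97% higher and 5.67% lower). The same values compare the effect of irradiation with and without the inhibitor. Without replicate 1 of IR_DMSO the interactions of IGFBP4 were -0.65 and -0.69 (edgeR adjusted p = 0.0139 and 0.00755), and IGFBP2, not called with all libraries (0.47 ± 0.26 and 0.41 ± 0.26), was called at 0.83 and 0.77 (edgeR adjusted p = 0.00265 and 0.00542). IGFBP7 was then called as well, at 0.50 and 0.64 (edgeR adjusted p = 0.0355 and 0.00564). The interaction of IGFBP3 was 0.43 ± 0.14 with RG7388 (edgeR adjusted p = 0.0763) and 0.39 ± 0.14 with HDM201 (edgeR adjusted p = 0.101), but was called by DESeq2 at 0.44 and 0.40 (DESeq2 adjusted p = 0.021 and 0.0415).

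The make-up of the binding protein transcripts, the share of each in the summed CPM per kilobase of IGFBP2 to IGFBP7, is given as a description. The shares depend on the exon lengths used and would differ on the deposited FPKM values. There IGFBP3 stood above IGFBP4 in Prolif_DMSO, at 552 ± 26.8 against 441 ± 10.2 FPKM. IGFBP4 made up 23.8% ± 0.417 (SD, n = 3) in Prolif_DMSO and 41.0% ± 7.38 in IR_DMSO, where replicate 1 had 49.5% and the lowest library 36.6%. In irradiated cells with RG7388 and HDM201 it made up 29.2% ± 1.06 and 29.4% ± 3.62. The share of IGFBP3 was lowest in IR_DMSO, at 8.63% ± 1.19, against 15.3% ± 0.542 in Prolif_DMSO, 13.0% ± 0.272 in IR_RG7388 and 14.0% ± 0.598 in IR_HDM201. IGFBP7 had 8.91% ± 0.329 in Prolif_DMSO and 13.6% ± 0.352 in IR_HDM201. The summed level itself was 2084 ± 45.5 CPM per kilobase in Prolif_DMSO, and 3686 ± 331, 3754 ± 66.8 and 3633 ± 57.3 in IR_DMSO, IR_RG7388 and IR_HDM201. The sums of the 3 irradiated groups overlapped within 1 SD, but for IR_DMSO this rests on replicate 1, at 4068 CPM per kilobase. The other IR_DMSO libraries, at 3504 and 3486, lay below the 3593 to 3794 of all irradiated libraries with an inhibitor.

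**Figure D4:**
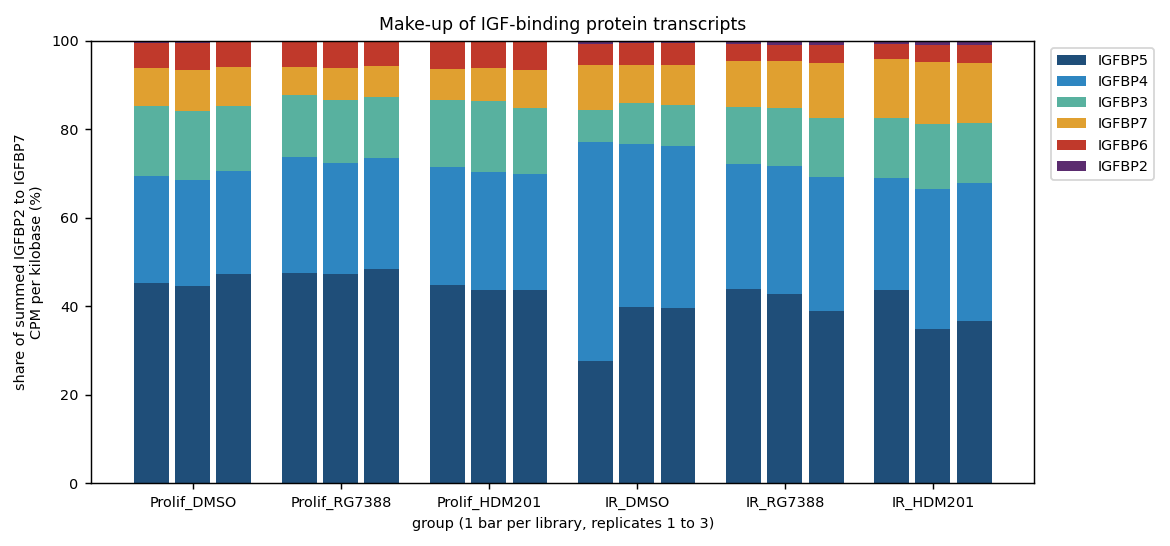
Share of each binding protein gene in the summed CPM per kilobase of IGFBP2 to IGFBP7 (percent, axis from 0 to 100), as a bar per library in replicate order within each group. IGFBP4 takes 36.6% to 49.5% of the bars of IR_DMSO and 25.2% to 31.7% of those of IR_RG7388 and IR_HDM201. The shares depend on the exon lengths used.

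A wider list of 32 genes of the same pathway, of which 29 were tested, holds the other binding proteins and receptors, proteases of binding proteins and their inhibitors, RNA-binding proteins of IGF2, and the adaptors and kinases below the receptor. Irradiation with DMSO raised 7 and lowered 12 of them, against 51.6% of all genes called (26.3% higher and 25.3% lower), with a median log2 fold change of -0.11 against 0.05 over all genes. In cells kept with RG7388 the counts were 4 and 12, against 44% of all genes, and with HDM201 they were 5 and 13, against 46.5%. With DMSO the smallest p-values belonged to ADAM12, a metalloprotease that cuts IGFBP3 and IGFBP5 (-2.46 ± 0.12, edgeR adjusted p = 3.36e-14), and GRB10, an adaptor that restrains receptor signalling (-1.35 ± 0.12, edgeR adjusted p = 2.82e-09). STC1 rose by 1.48 ± 0.13 (edgeR adjusted p = 2.93e-09), and IGF2BP1, an RNA-binding protein of the IGF2 transcript, fell with a log2 fold change of -1.15 ± 0.11 (edgeR adjusted p = 4.27e-09).

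In irradiated cells RG7388 raised 9 and lowered 5 of the 29 genes, against 22.8% of all genes called, and HDM201 raised 4 and lowered 6, against 21.3%, with medians of 0.07 and -0.01 against -0.03 and -0.02 over all genes. The inhibitors of PAPPA had the smallest p-values in both. STC2 was 837 ± 31.96 CPM (SD, n = 3) in IR_DMSO, 425 ± 29.9 in IR_RG7388 and 386 ± 27.4 in IR_HDM201. Its log2 fold changes were -0.98 ± 0.09 (edgeR adjusted p = 5.29e-08) and -1.12 ± 0.10 (edgeR adjusted p = 8.76e-09). STC1 was 518 ± 122 CPM in IR_DMSO, 244 ± 19.98 in IR_RG7388 and 225 ± 27.7 in IR_HDM201. Its log2 fold changes were -1.09 ± 0.13 (edgeR adjusted p = 1.51e-06) and -1.20 ± 0.13 (edgeR adjusted p = 4.79e-07). Transcripts of the protease and of both its inhibitors were thus lower with the MDM2 inhibitors in irradiated cells. IRS2, a docking protein of the receptor, fell with log2 fold changes of -0.73 ± 0.14 (edgeR adjusted p = 0.000352) and -0.74 ± 0.14 (edgeR adjusted p = 0.000384). ADAM12 rose by 0.59 ± 0.11 (edgeR adjusted p = 0.000457) and 0.49 ± 0.11 (edgeR adjusted p = 0.00278), to 23.3 and 21.8 CPM from 15.6 in IR_DMSO.

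In proliferating cells edgeR called 0 of the 29 genes with either inhibitor. At an unadjusted p under 0.05 there were 3 higher and 0 lower with RG7388, and 3 higher and 1 lower with HDM201, and DESeq2 called 1 and 0. The smallest p-values with RG7388 belonged to the adaptor SHC1 (0.39 ± 0.10, edgeR adjusted p = 0.0636) and to STC1 (0.45 ± 0.14, edgeR adjusted p = 0.0883). The interaction with state was called for 1 gene in the higher direction, ADAM12 (0.74 ± 0.16 with RG7388 and 0.83 ± 0.16 with HDM201). In the lower direction 3 were called with RG7388 and 4 with HDM201. Over all genes, 2.2% were called higher and 5.27% lower with RG7388, and 2.97% and 5.67% with HDM201. STC1 had interactions of -1.54 ± 0.19 with each inhibitor (edgeR adjusted p = 4.02e-06 and 4.19e-06), and STC2 of -1.09 ± 0.13 and -1.17 ± 0.13 (edgeR adjusted p = 4.55e-06 and 2.13e-06). Those of IRS2 were -0.64 ± 0.19 and -0.71 ± 0.19 (edgeR adjusted p = 0.0431 and 0.0217). Without both libraries that stood apart, the irradiated counts were 8 higher and 5 lower with RG7388 and 4 and 5 with HDM201. These stand against 27% and 26.9% of all genes called. In proliferating cells the counts were then 3 and 0 with RG7388 and 3 and 1 with HDM201, against 7.83% and 15.4% of all genes.

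**Figure D5:**
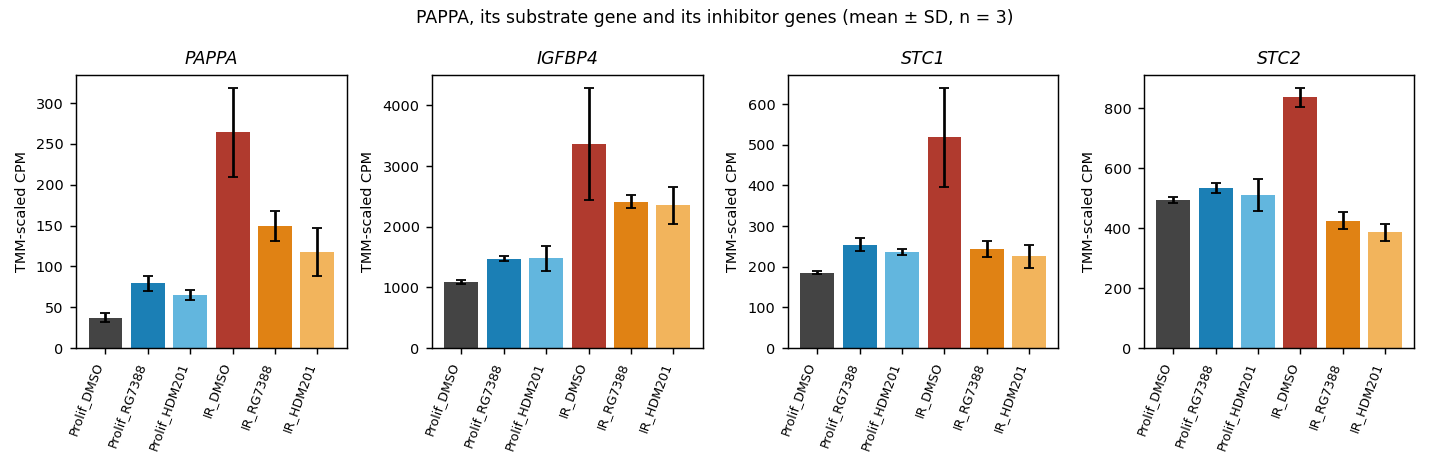
Mean level (TMM-scaled CPM, bars from 0, error bars SD, n = 3) of PAPPA, of its substrate gene IGFBP4 and of its inhibitor genes STC1 and STC2 in the 6 groups. All 4 have their highest mean in IR_DMSO, and STC2 in irradiated cells with RG7388 (425 CPM) or HDM201 (386 CPM) lies below its level in Prolif_DMSO (493 CPM).

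The genes with the most similar profile to each member over the 6 group means were found by the smallest root mean square difference of centred log2 CPM, where only genes averaging 10 CPM or more were considered. For PAPPA these were STOM and NRG1, with differences of 0.213 and 0.218, and for IGFBP4 APOL2 and SP110, with 0.0495 and 0.0779. IGFBP3 was nearest to UBE2F (0.028) and CSTB (0.0456), IGFBP2 to NDFIP2 (0.0877) and SYNGR2 (0.0927), and IGFBP5 to FLYWCH1 (0.029) and LRP10 (0.0323). IGFBP6 was nearest to TYSND1 (0.035) and DYRK3 (0.0367), and IGFBP7 to LYRM7 (0.0568) and HIGD1A (0.0612). IGF2 was nearest to the matrix genes COL18A1 (0.152) and FBN1 (0.157), and IGF1R to MED1 (0.0313) and TNRC18 (0.043). PAPPA, whose group means spanned 2.81 on the log2 scale, had the least similar neighbours of the 9, and IGFBP3, which spanned 0.689, the closest single one.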

How the data were processed

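Poly(A) RNA of 18 libraries in 6 groups of 3 was analysed, with groups and replicate numbers from the sample labels. The authors aligned reads to hg38 with STAR in 2-pass mode and deposited raw counts per gene from HTSeq, and FPKM values from Cufflinks (600441 blank cells were read as 0). Their versions, the annotation release and the strand setting were not given in the sources used here. Of 60668 genes in each table, 45 pseudoautosomal copies were left out. IDs matched GENCODE release 44 for 99.46% of genes, which gave positions and exon lengths. Library totals, 21609198 to 66647700 counts, limit precision, and floors and intervals cover counting error or replicate spread only.

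Counts were analysed in R 4.3.3 with edgeR 4.0.16 (filterByExpr, TMM, robust quasi-likelihood fit with a mean per group, 12 residual degrees of freedom, Benjamini-Hochberg over 18151 genes). SE is the size of the log2 fold change over the square root of F, and 95% intervals use those 12 degrees of freedom. The 9 comparisons are irradiation within each treatment, each inhibitor within each state, and the 2 interactions. Alternatives used DESeq2 1.42.0, limma 3.58.1 on log2(FPKM + 1) and log2(FPKM + 0.1), other scalings and filters, a replicate block, the groups of a comparison only, and fewer libraries. In simulated data for RG7388 in irradiated cells, 68.4% of 95 genes changed 2-fold and 34.7% of 98 changed 1.5-fold were recovered among 17613 genes, with 3 false calls. All groups were drawn from the IR_DMSO means and no other genes were changed. In the data 22.8% of genes were called, so the adjusted threshold differs and these rates are not those of the real comparison.

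The members, the lists and the tests were chosen with earlier results of these data known. Named genes are the 10 members, up to 4 pathway genes per comparison with the smallest p, genes that check the labels, and the 2 nearest profiles per member. No p is given over the list alone. The text gives a selection of these.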

Additional observations from a re-analysis of the deposited data

Results flagged for a closer look

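6 results differed between proliferating and irradiated cells by the test of the interaction in edgeR, the log2 change with the inhibitor in irradiated cells minus that in proliferating cells. Cell state and length of treatment cannot be told apart here, since the labels give no length for proliferating cells. For PAPPA the interaction was -1.91 with RG7388 and -1.98 with HDM201 (edgeR adjusted p = 2.84e-05 and 2.04e-05). For IGFBP4 it was -0.90 and -0.95 (edgeR adjusted p = 0.00504 and 0.00322), and without replicate 1 of IR_DMSO -0.65 and -0.69. IGFBP6 had -0.58 and -0.72 (edgeR adjusted p = 0.018 and 0.00303), and its interaction with RG7388 lost its call without replicate 1 or 3 of Prolif_DMSO, replicate 2 of Prolif_RG7388, or replicate 1 or 2 of IR_RG7388 (edgeR adjusted p from 0.0603 to 0.0803). PAPPA was called in both states, higher in proliferating and lower in irradiated cells. IGFBP4 and IGFBP6 were called lower in irradiated cells. In the edgeR fit to all 18 libraries with the filter on low counts, neither was called in proliferating cells.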

How the results depend on the processing

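Of 43 called member results over the 9 comparisons, 29 kept their call in every alternative and 14 lost it in at least 1, and 21 of 38 uncalled results were called in at least 1. The 3 reversals were all IGFBP3 with irradiation in DMSO, at 0.27 with library totals, 0.23 in limma with log2(FPKM + 1) and 0.23 with log2(FPKM + 0.1), both filtered. With library totals, the median of all genes moved by 0.288 (DMSO), 0.156 (RG7388) and 0.147 (HDM201) in the irradiation comparisons, by -0.188 and -0.146 for RG7388 and HDM201 in irradiated cells, and by -0.132 and -0.142 in their interactions. The share of called genes that were higher then went from 51% to 71.5%, 48.3% to 61.8%, 48.9% to 60.2%, 48% to 20.2%, 46.8% to 22.5%, 29.4% to 15.1% and 34.4% to 15.7%, and for RG7388 in proliferating cells from 77.8% to 67.5%. On FPKM, 1 member instead of 2 was called lower in each irradiation comparison, since IGF1R was not called, and the cause was not tested.

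For RG7388 in irradiated cells, 1 member was called higher with library totals or with the groups of the comparison only, and 1 lower without both libraries that stood apart. For RG7388 in proliferating cells, 279 genes were called, against 1081 with the groups of the comparison only, 532 by DESeq2, 155, 163 and 76 in the 3 limma fits (log2(FPKM + 1), log2(FPKM + 0.1), and unfiltered) and 1436 without both libraries. Neither of the libraries left out is in a group of this comparison, while the edgeR fit estimates the spread over all groups together. Members called higher there were 4 with no filter, with the groups of the comparison only and without both libraries, and 2 by DESeq2. For HDM201 in proliferating cells, 127 genes were called, against 21 with the groups of the comparison only, 296 by DESeq2, 74 and 57 by limma on log2(FPKM + 1) with and without the filter, and 2833 without both libraries. Members called higher were 0 with library totals, the groups of the comparison only and the 3 limma fits, and 5 without both libraries. The RG7388 interaction had 1356 genes, 2098 with the groups of the comparison only and 2204 without both libraries, with 1 member higher by DESeq2 and in the groups only and 3 without both. That of HDM201 had 1568 and, without both, 3321, with 2 members higher by DESeq2 and without both and 1 in each limma fit. The cause of these was not tested.

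Leaving out 1 library gave 94 to 134 genes for RG7388 and 43 to 1672 for HDM201 in proliferating cells, with 0 to 5 members higher for HDM201, and 991 to 1268 and 1127 to 2943 genes in the interactions, with 0 to 2 members higher and 2 to 3 (RG7388) or 3 to 4 (HDM201) lower. In irradiated cells 1 to 3 members were higher and 1 to 3 lower with RG7388, against 2894 to 3617 genes called. With HDM201, 2 to 3 members were higher and 1 to 3 lower, against 3024 to 3323 genes called. With all libraries 4134 and 3861 genes were called. The highest gene counts for HDM201 in proliferating cells and in the interaction, 1672 and 2943, came without replicate 3 of Prolif_HDM201. The labels do not say whether replicate numbers pair the libraries. In deviations from the group means, 8 of 45 same-number pairs correlated over 0.1 (range -0.206 to 0.187). Pairs with different numbers were not compared, so these values cannot decide whether libraries were paired. With the replicate block, IGFBP6 with RG7388 in irradiated cells kept its log2 fold change of -0.30 and lost its call (edgeR adjusted p = 0.058), and no other member call changed.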

Other observations

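The ratio of IGFBP4 to PAPPA transcripts, both in CPM per kilobase, was 129 to 183 in Prolif_DMSO and 50.1, 50.4 and 116 in IR_DMSO, where the highest value belonged to replicate 1. It was 90.1 to 114 in Prolif_RG7388, 94.0 to 141 in Prolif_HDM201, 73.9 to 102 in IR_RG7388 and 72.1 to 155 in IR_HDM201. The ratio of IGFBP5 to IGFBP2, whose genes are neighbours, was 102 to 140.4 in proliferating libraries and 37.1 to 86.7 in irradiated ones, with no overlap. Both ratios are in CPM per kilobase and depend on the exon lengths used. On the deposited FPKM values the means of IGFBP5 and IGFBP2 were 846 and 35.5 in Prolif_DMSO and 1395 and 111 in IR_DMSO, a smaller ratio in each. The ratios are descriptions and were not tested.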
